A study of Mus musculus with 37 samples.

Results

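The Eif1a-like 2-cell genes comprised 9 genes, chosen by symbol from the RNA-seq tables of mouse GV oocytes and 2-cell embryos, which together list 29294 symbols. They were Gm5039, Gm8300, BB287469, Gm2016, Gm2022, Gm2035 and Gm5662, 7 copies that lie on chromosome 12, and Eif1a and Eif1ax. All 9 were listed in the ZH oocyte table, the CabZ 2-cell table and the Zscan4 table, and 7 in the CabZ oocyte table, in which Gm2022 and Gm2035 were not listed. The genes were chosen for their values in the comparisons that follow. Their levels and differences are therefore given as a description, without a p-value.

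Eif1a and Eif1ax encode eIF1A, a translation initiation factor that binds the small ribosomal subunit and, together with eIF1, helps it to scan the mRNA for the start codon. Eif1ax is the X-linked, intron-containing gene used by most cells. The copies on chromosome 12 belong to the genes that are transcribed in a burst when the embryonic genome is activated at the 2-cell stage in mice, as are the Zscan4 genes. GV oocytes, which are arrested in meiotic prophase with an intact germinal vesicle, normally carry Eif1ax mRNA and little RNA of the 2-cell genes.

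The study, on C57BL/6 mice, inactivated subunits of the Hira complex, the chaperone that deposits histone H3.3, in growing mouse oocytes. ZH KO oocytes were Zp3-Cre; Hira flox/flox, with exons 6 to 7 of Hira deleted, and CabZ KO oocytes were Zp3-Cre; Cabin1 flox/flox, with exon 6 of Cabin1 deleted. The Het controls of each line were littermates that carried 1 floxed allele with the same Cre, so they had lost an allele too. Zp3-Cre acts in growing oocytes, and the deletion is maternal in the 2-cell embryos. The GV oocytes came from superovulated females whose age was not given in the sources used here, and how the CabZ 2-cell embryos were obtained was not given either. Zscan4 OE embryos came from wild-type GV oocytes injected with Zscan4d RNA, and GFP embryos from oocytes injected with GFP RNA. Both were matured in vitro, activated without sperm and collected as 2-cell embryos. Each group held 4 RNA-seq libraries, apart from 3 of Zscan4 OE embryos. According to the methods a library held 10 oocytes, although the records describe single cells. Neither source says that replicates came from separate animals, so p-values measure only the spread between these libraries, which may be technical.

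The 7 copies on chromosome 12 were part of a cluster of 16 coding copies between bases 87494721 and 88321481 (GRCm38, GENCODE M21). Copies were searched for as coding sequences of the length of Eif1ax, 435 bases for 144 residues, with at least 60% of its residues. Copies of another length are therefore not counted. Each of those found had its coding sequence in 1 exon. The listed copies were identical to one another at 97.0 to 99.1% of bases over 21 pairs. They matched the coding sequence of Eif1ax at 83.7 to 85.1% of bases and its protein at 90.3 to 94.4% of residues. Of the coding bases, 23 differed among the 7 copies. The stretch from base 231 to 290 of the coding sequence holds 8 of them, the most in any window of 60 bases, and is shown because reads are assigned to one copy or another by such positions. Capitals mark bases that differ from Gm5039, which lies there at chr12:88321192-88321251 on the minus strand.
Gm5039: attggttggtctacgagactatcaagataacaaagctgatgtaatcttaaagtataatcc
Gm8300: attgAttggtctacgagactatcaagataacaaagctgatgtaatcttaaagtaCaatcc
BB287469: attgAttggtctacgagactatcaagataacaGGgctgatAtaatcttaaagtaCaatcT
Gm2016: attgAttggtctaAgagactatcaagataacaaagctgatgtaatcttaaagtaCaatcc
Gm2022: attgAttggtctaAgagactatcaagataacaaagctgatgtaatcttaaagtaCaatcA
Gm2035: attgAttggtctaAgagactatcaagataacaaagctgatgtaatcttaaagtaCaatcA
Gm5662: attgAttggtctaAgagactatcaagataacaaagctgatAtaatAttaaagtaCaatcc
Eif1ax: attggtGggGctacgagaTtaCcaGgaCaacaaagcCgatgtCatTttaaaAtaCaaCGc
Gm2016 differed from Gm5039 at 3 bases of this window, and Gm2022 and Gm2035 had the same window with 4 differences. BB287469 differed at 6 bases and Eif1ax at 13. The windows lie at chr12:87517127-87517186 for Gm8300, chr12:87819551-87819610 for BB287469, chr12:87876815-87876874 for Gm2016 and chr12:87895600-87895659 for Gm2022, all on the plus strand. On the minus strand, that of Gm2035 lies at chr12:87919568-87919627 and that of Gm5662 at chr12:88271699-88271758. The window of Eif1ax is read from its spliced transcript on chromosome X.

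RefSeq's promoter table for GRCm38.p6 held entries for 2 of the 9 genes, BB287469 and Eif1ax. Their 250 bases upstream of the start are shown because a copy that is hardly seen in control oocytes can here be set beside the gene that those oocytes use. No link between these sequences and the levels was tested. Capitals mark matches to TATATA in BB287469 and to GGGCGG on either strand in Eif1ax. They lie at chr12:87816327-87816576 and at chrX:159371928-159372177, both on the plus strand.
BB287469: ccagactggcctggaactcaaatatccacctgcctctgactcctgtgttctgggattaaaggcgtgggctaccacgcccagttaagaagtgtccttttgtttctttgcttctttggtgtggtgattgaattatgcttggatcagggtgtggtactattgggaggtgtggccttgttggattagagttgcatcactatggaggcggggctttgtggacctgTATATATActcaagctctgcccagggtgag
Eif1ax: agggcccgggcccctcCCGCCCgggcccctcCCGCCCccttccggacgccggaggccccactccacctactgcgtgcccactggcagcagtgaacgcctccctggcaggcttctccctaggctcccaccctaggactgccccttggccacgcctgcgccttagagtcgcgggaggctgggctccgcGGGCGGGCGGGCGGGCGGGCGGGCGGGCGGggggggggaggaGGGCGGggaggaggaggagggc
The BB287469 promoter held 49.6% G and C, close to the median of 32851 promoters (52.4%). It held 3 CG dinucleotides, fewer than the median of 6. TATATA occurred in it at 2 overlapping positions, the nearer one starting at base -28 relative to the start site, and 5.25% of all promoters held this motif on either strand. The Eif1ax promoter held 78.8% G and C and 23 CG dinucleotides, and 98.4% of promoters had no more G and C. It held 10 matches to GGGCGG over both strands, overlapping matches included, and 32.7% of all promoters held at least 1. Neither promoter held TATAAA on either strand, while 12.4% of promoters did. The same was true of the motif TGCACAC, which 3.67% of promoters held, and of the motif CACGTG, which 6.02% held. A match describes the letters and is not evidence of a bound factor.

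The likeness of the copies limits how far their reads can be told apart. Of the windows of 150 bases, the read length, in the exons of BB287469, 86.99% occurred at another place of the genome without a mismatch, and so did 42.8% for Gm5662, 41.9% for Gm2016, 19.9% for Gm2022 and 14.7% for Gm2035. For Gm8300 the share was 4.83% and for Gm5039 2.89%. None of the windows of Eif1a and Eif1ax occurred elsewhere. Values of BB287469, Gm5662 and Gm2016 in particular may hold reads of each other and of copies that are not listed. The copies' gene models also differ, since those of Gm2022 and Gm2035 in the tables hold only the 435 coding bases, whereas the other 5 span 3788 to 4100 bases with an intron.

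The libraries had between 5819315 and 21869858 reads counted on genes, fewest in CabZ KO 2-cell embryos (at most 6330240) and most in one GFP library. Expression is given as FPKM (fragments per kilobase of the whole gene span, scaled to library depth) unless exon length is named. Cabin1 was at 0.0242 ± 0.0167 FPKM in CabZ KO and 0.119 ± 0.0312 FPKM in CabZ Het oocytes (SD, n = 4 each; exact permutation test, two-sided, p = 0.0286, which is as small as 4 against 4 libraries can give), and in 2-cell embryos at 0.134 ± 0.0497 FPKM against 0.322 ± 0.0978 FPKM (same test, p = 0.0286). Hira had 0 to 13 reads per ZH KO and 2 to 14 per ZH Het library, too few to check those labels. Zscan4d was not higher in the libraries labelled Zscan4 OE, at 79.4 ± 7.94 FPKM (SD, n = 3), while GFP libraries had 117 ± 34.4 FPKM (SD, n = 4; exact permutation test, two-sided, p = 0.229), and reads of the near-identical Zscan4 genes could be split among them. All 12 oocyte markers had a mean of at least 1 FPKM in both oocyte tables, and no listed granulosa, cumulus, theca or stroma marker did. Of the leukocyte list, Cd68 did in both. Some markers could not be seen, since 9 of 12 granulosa and cumulus and 2 of 6 theca and stroma markers were listed for CabZ oocytes. In CabZ 2-cell embryos the summed oocyte markers had 396 to 916 FPKM in KO and 140 to 216 FPKM in Het libraries, and the leukocyte list 5.25 to 186 FPKM in KO and 0.907 to 10.8 FPKM in Het libraries. Of that list Cd68 and Lyz2 had a mean of at least 1 FPKM there, whereas Ptprc, Adgre1 and C1qa did not. CabZ KO 2-cell replicate 4 stood apart from its group in both sums, and Zscan4 OE replicate B in the sum of 2-cell markers (305 FPKM, against 582 and 589 FPKM).

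In ZH KO oocytes, Gm5039, Eif1a, Gm2022 and Gm5662 were called higher, and Gm5039 had the largest log2 fold change of the members fitted. Gm5039 (chromosome 12, 88320122 to 88324026, minus strand) had 41.3, 36.1, 16.3 and 45.7 FPKM in ZH KO libraries 1 to 4. The ZH Het libraries had 0.313, 0.459, 0.958 and 0.945 FPKM, which rest on 17 to 75 reads. No KO library came near any Het library, and KO replicate 3 was the lowest of its group. The ratio of the group means was 52.1, and the log2 fold change from limma was 4.35 ± 0.30 (SE) on the log2(FPKM + 1) scale. In pooled libraries, more oocytes with the transcript and more transcript per oocyte cannot be told apart.

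Eif1a (chromosome 18, 46597704 to 46610225, plus strand), an autosomal gene whose coding sequence lies in 1 exon, had 2.05, 1.63, 1.91 and 1.96 FPKM in ZH KO oocytes. In ZH Het oocytes it had 0.0632, 0.0995, 0.246 and 0.310 FPKM, on 11 to 79 reads. The 4 KO libraries lay close together and above the Het libraries, a 10.5-fold ratio of means and a log2 fold change of 1.29 ± 0.12 (SE).

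Gm2022 (87895370 to 87895804, plus strand) had no read in any ZH Het library and 0.503, 2.77, 1.67 and 4.79 FPKM in ZH KO libraries. These values rest on 3 to 28 reads over a model of 435 bases. Set against a floor of 3 reads in each Het library, its CPM (reads scaled to library depth) in ZH KO oocytes were at least 6.07-fold higher, and the log2 fold change was 1.61 ± 0.34 (SE). Gm5662 (88270640 to 88274500, minus strand) had about 1 read in 1 of the 4 ZH Het libraries and none in the others. Its ZH KO libraries had 0.185, 3.42, 4.08 and 1.22 FPKM, on 11 to 212 reads, and its log2 fold change was 1.46 ± 0.39 (SE). KO replicate 1, among the highest for Gm5039, was thus the lowest for both Gm5662 and Gm2022.

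The remaining copies stayed under 1 FPKM on average over the ZH table. Gm8300 (87514316 to 87518266, plus strand) was at 0 in the Het libraries and at 0.132, 0.367, 0.230 and 1.34 FPKM in the KO libraries, at least 11.8-fold higher against the same floor. Gm2016 (87874072 to 87877859, plus strand) was at 0 in the Het libraries too and at 0.0303 to 0.392 FPKM in the KO libraries, at least 5.42-fold higher. BB287469 (87816577 to 87820676, plus strand) reached 0.141 to 0.414 FPKM in KO libraries, on 8 to 23 reads, and at most 2 reads in a Het library. Gm2035 (87919423 to 87919857, minus strand) had at most 2 reads in any library and was not measurable at this depth.

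Eif1ax (chromosome X, 159372178 to 159389928, plus strand) was the member with the most RNA in ZH Het oocytes, at 17.3, 15.0, 18.1 and 19.5 FPKM. In ZH KO oocytes it had 29.5, 21.3, 21.4 and 27.7 FPKM. All KO libraries lay above all Het libraries, but the log2 fold change of 0.48 ± 0.15 (SE) was under the threshold of 2-fold.

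Of the 9 members, 5 had a mean of at least 1 FPKM in the ZH table and entered the fit, and 4 of them (Gm5039, Eif1a, Gm2022 and Gm5662) were called higher at an adjusted p under 0.05 and more than 2-fold. Among all 5792 genes tested, 10.5% were called higher and 7.2% lower, printed for orientation only since the members were chosen with this contrast known. All 4 called members had a Het mean under 1 FPKM and passed the filter through the KO libraries alone, so they had to differ. Eif1a did not pass it when any 1 KO library was left out. Without ZH KO replicate 2, 2 members passed the filter and 1 was called, and without replicate 3 or 4 of that group 2 were called. With each library shifted to the same median the calls over all genes were 483 higher and 583 lower, and scaled to the reads on the table's genes 958 higher and 372 lower, against 606 and 417 in the table's own scaling. The median log2 fold change of all genes was -0.17 and 0.08 under these scalings, against -0.04. Every member that was fitted kept its direction under both, and Eif1a fell under the filter with the same median. For the called members the direction was given by how they passed the filter.

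Marker sums moved with the ZH groups as well. The 2-cell markers, of which Zfp352, Duxf3 and Usp17la were under 1 FPKM on average, summed to 254 to 390 FPKM in ZH KO and 84.1 to 118 FPKM in ZH Het libraries. The oocyte markers summed to 1514 to 2289 FPKM in KO and 2672 to 2779 FPKM in Het libraries. Granulosa and cumulus markers, each under 1 FPKM on average, summed to 1.18 to 2.23 FPKM in KO and 0.477 to 0.812 FPKM in Het libraries. Theca and stroma markers, of which 3 of 6 were listed and each was under 1 FPKM, summed to 0.170 to 0.305 FPKM in KO and 0.0341 to 0.0688 FPKM in Het libraries, and the leukocyte list to 2.19 to 5.56 FPKM and 1.14 to 1.49 FPKM. The part of these markers in the members' differences was not tested.

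**Figure D1:**
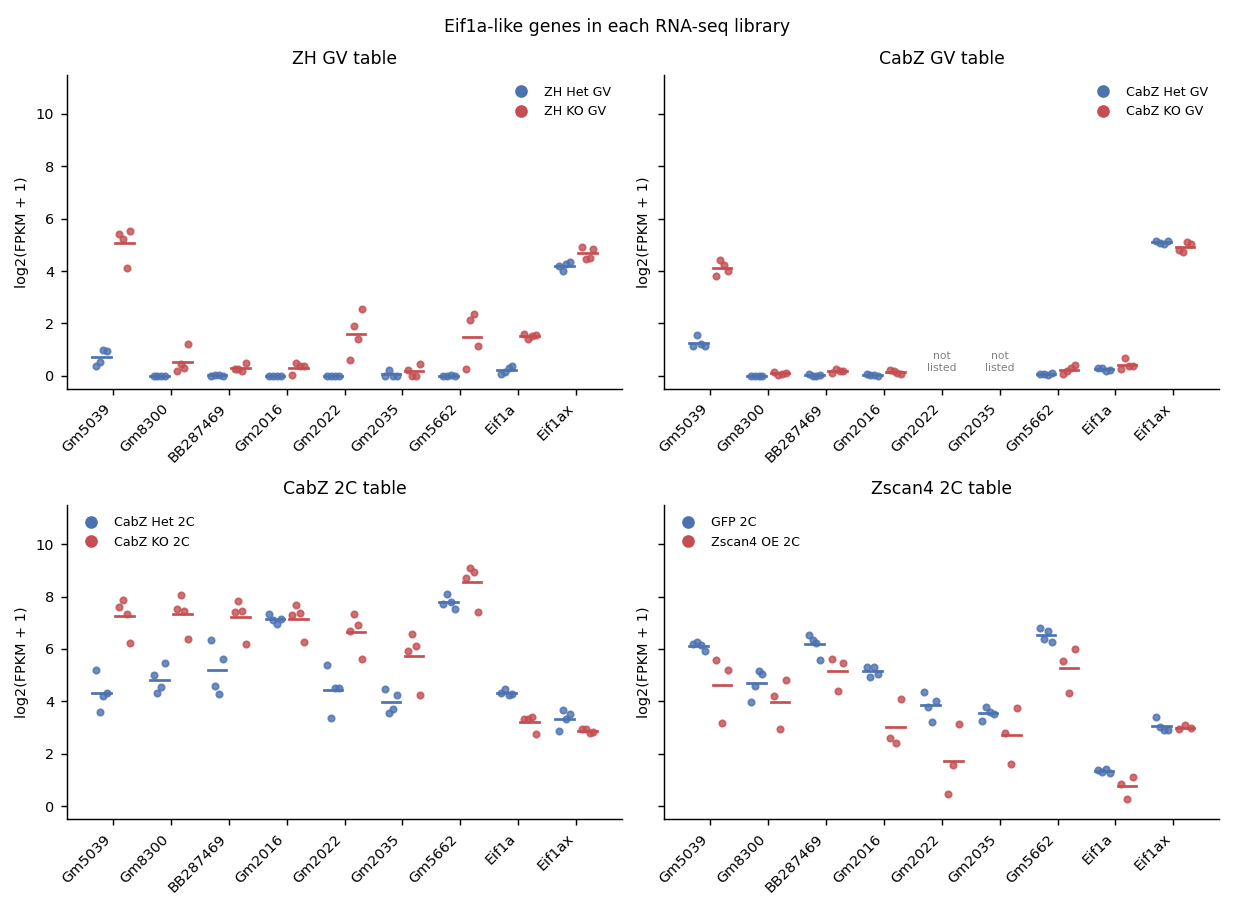
Each point is 1 library, placed by log2(FPKM + 1), for the 9 members in the 4 RNA-seq tables, and bars are group means. Gm5039 stands above the other listed chromosome 12 copies in oocytes of both KO lines, whereas all listed copies are present in 2-cell embryos.

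In CabZ KO oocytes, Gm5039 again rose, the levels of the other 4 listed copies and of Eif1a were low in both genotypes, and Eif1ax had the highest level in both. Gm5039 had 13.1, 20.5, 17.8 and 15.1 FPKM in CabZ KO libraries, on 511 to 736 reads. CabZ Het libraries had 1.19, 1.94, 1.29 and 1.196 FPKM, on 50 to 84 reads. The groups were far apart, with a ratio of means of 11.9 and a log2 fold change of 2.87 ± 0.15 (SE).

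Eif1ax had 26.9, 25.7, 33.9 and 31.4 FPKM in CabZ KO and 34.3, 32.8, 32.1 and 34.9 FPKM in CabZ Het oocytes. The groups overlapped, and the log2 fold change of -0.19 ± 0.11 (SE) was not called. Eif1a had 0.207, 0.592, 0.283 and 0.289 FPKM in KO and 0.243, 0.245, 0.137 and 0.164 FPKM in Het libraries, with overlapping groups, and did not pass the filter.

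Gm8300 had 1 to 4 reads in each CabZ KO library and none in the Het libraries. BB287469 had 4 to 7 reads per KO library and up to 3 per Het library, and Gm2016 had 1 to 6 and up to 2. Gm5662 was at 0.0535, 0.126, 0.244 and 0.324 FPKM in KO and at 0.0347 to 0.0726 FPKM in Het libraries. Only differences larger than a few reads could be seen for these genes at this depth. Of the 7 members listed, 2 passed the filter and 1 was called higher, beside 2.07% of all 6339 genes called higher and 0.836% called lower. The 2-cell markers summed to 231 to 297 FPKM in CabZ KO and 153 to 170 FPKM in CabZ Het oocytes, and their part in the difference of Gm5039 was not tested.

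Read sums avoid part of the uncertainty of assigning reads to single copies. The 7 listed copies together took 224 ± 73.1 CPM in ZH KO oocytes and 3.61 ± 1.79 in ZH Het oocytes (SD, n = 4 each), a ratio of 62.1. In the CabZ oocyte table, 5 of them were listed and took 66.9 ± 12.8 CPM in KO and 5.89 ± 1.37 in Het oocytes (SD, n = 4 each), a ratio of 11.4. In these oocytes the lowest KO library lay above the highest Het library in both lines. In CabZ 2-cell embryos the 7 copies took 4214 ± 1681 CPM in KO and 1765 ± 199 CPM in Het embryos (SD, n = 4 each), a ratio of 2.39. There the groups overlapped, with the lowest KO library at 1882 CPM and the highest Het library at 2035 CPM. The libraries labelled Zscan4 OE had 798 ± 399 CPM (SD, n = 3) and GFP libraries 1759 ± 230 CPM (SD, n = 4), without overlap. Gm5039 held most of the signal of the copies in all 4 oocyte groups, with 86.9 ± 9.58% of their summed FPKM per exon length in ZH KO and 97.0 ± 0.587% in CabZ KO oocytes (SD, n = 4 each).

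**Figure D2:**
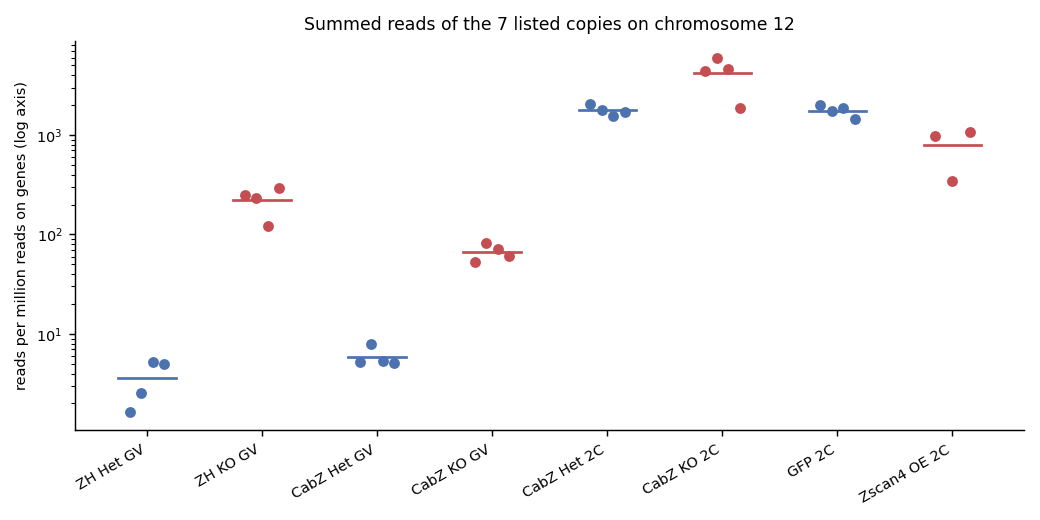
Points give, for each library, the summed level of the listed chromosome 12 copies in CPM, on a log axis, with lines at group means and KO or Zscan4 OE groups in red. Het oocytes lie between 1.64 and 7.93 CPM and the 2-cell groups between 341 and 5889.

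From GV oocytes to 2-cell embryos of the CabZ line, 6 members that could be compared were higher in the embryos, and Eif1ax was lower. The 2 tables were normalised separately, so levels are set side by side without a test. In Het samples Gm5662 had 0.0535 ± 0.0170 FPKM in oocytes and 220 ± 36.2 FPKM in 2-cell embryos (SD, n = 4 each). Gm2016 had 0.0276 ± 0.0189 FPKM and then 139 ± 14.9 FPKM. BB287469 went from 0.0221 ± 0.0281 to 42.4 ± 28.3 FPKM and Gm8300 from 0 to 28.9 ± 10.8 FPKM. These copies were hardly seen in oocytes and were abundant at the next stage listed.

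Gm5039 had the smallest relative change of the copies and the highest level of them in oocytes. It had 1.40 ± 0.359 FPKM in CabZ Het oocytes and 20.8 ± 10.4 FPKM in CabZ Het 2-cell embryos (SD, n = 4 each), 14.8 times as much. In KO samples it had 16.6 ± 3.26 and 165 ± 67.3 FPKM, 9.88 times as much. Its level in CabZ KO oocytes was thus near that of CabZ Het 2-cell embryos, as far as values of separate tables can be set side by side.

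Eif1a was at 0.197 ± 0.0552 FPKM in CabZ Het oocytes and 19.2 ± 1.42 FPKM in Het 2-cell embryos, 97.1 times as much. In KO samples it was at 0.343 ± 0.170 and 8.38 ± 1.71 FPKM, 24.4 times as much. Eif1ax went the other way, from 33.5 ± 1.28 to 9.37 ± 2.29 FPKM in Het samples and from 29.5 ± 3.86 to 6.40 ± 0.461 FPKM in KO samples (SD, n = 4 each).

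**Figure D3:**
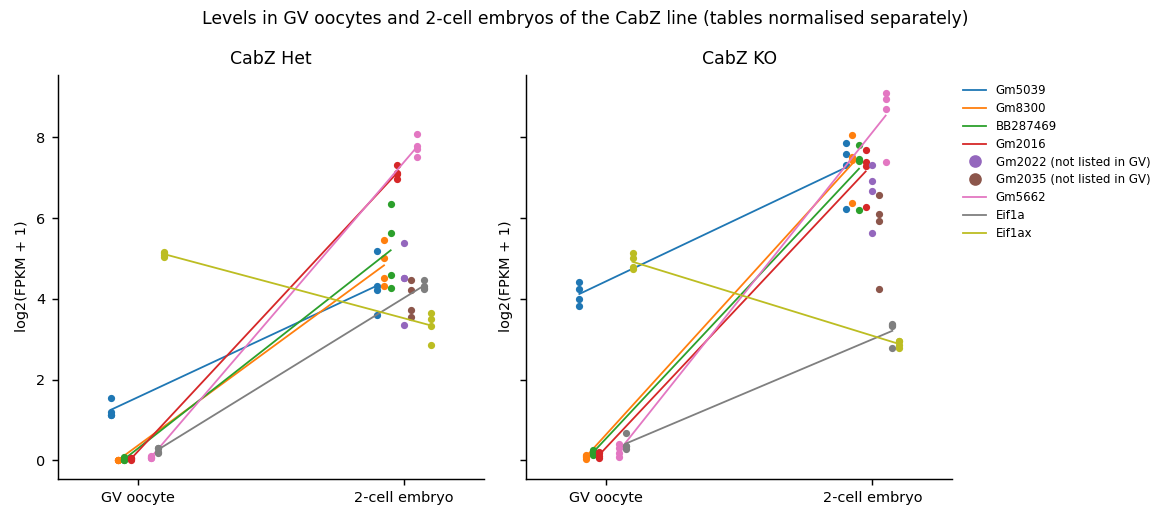
Points are libraries of the CabZ line at the GV and 2-cell stages, placed by log2(FPKM + 1) of each member, with lines between group means. All lines rise apart from that of Eif1ax, and in KO samples the line of Gm5039 starts at 16.6 rather than 1.40 FPKM.

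In CabZ KO 2-cell embryos, 5 of the 7 copies were called higher than in CabZ Het embryos, Eif1a was called lower, and Gm2016, Gm5662 and Eif1ax were not called. Gm5039 had 193, 232, 159 and 74.2 FPKM in KO and 35.6, 11.2, 17.5 and 18.9 FPKM in Het embryos. The lowest KO library had more than the highest Het library, a ratio of means of 7.90 and a log2 fold change of 2.92 ± 0.41 (SE). Gm8300 had 183, 265, 173 and 82.6 FPKM in KO and 31.5, 19.0, 22.1 and 42.9 FPKM in Het embryos, again without overlap. Its ratio of means was 6.09 and its log2 fold change 2.52 ± 0.37 (SE).

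Gm2022 had 101, 159, 121 and 48.3 FPKM in KO and 40.9, 9.28, 21.8 and 21.9 FPKM in Het embryos, a log2 fold change of 2.19 ± 0.46 (SE). BB287469 had 171, 226, 175 and 72.6 FPKM in KO and 80.0, 22.9, 18.3 and 48.3 FPKM in Het embryos, a log2 fold change of 2.02 ± 0.50 (SE). Gm2035 had 59.7, 94.3, 68.1 and 18.0 FPKM in KO and 21.1, 10.7, 12.2 and 17.8 FPKM in Het embryos, a log2 fold change of 1.72 ± 0.46 (SE). Het replicate 1 was the highest Het library for all 3, and for BB287469 and Gm2035 it exceeded KO replicate 4.

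Gm2016, which had the highest level in Het embryos after Gm5662, had 160, 135, 124 and 139 FPKM there and 155, 205, 167 and 76.3 FPKM in KO embryos. The groups overlapped on both sides, and the log2 fold change was 0.03 ± 0.29 (SE). Gm5662 had 419, 549, 492 and 168 FPKM in KO and 210, 269, 220 and 183 FPKM in Het embryos. Here 3 KO libraries exceeded all Het libraries and KO replicate 4 was under all of them, with a log2 fold change of 0.77 ± 0.35 (SE).

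Eif1a fell in CabZ KO embryos, whereas 5 of the 7 copies were called higher. It had 9.14, 9.12, 9.44 and 5.83 FPKM in KO and 19.0, 21.2, 18.1 and 18.3 FPKM in Het embryos, with no overlap and a log2 fold change of -1.12 ± 0.19 (SE). Eif1ax had 6.80, 6.76, 5.85 and 6.20 FPKM in KO and 6.31, 11.7, 9.09 and 10.4 FPKM in Het embryos. Its groups overlapped through Het replicate 1 alone, and the log2 fold change of -0.46 ± 0.20 (SE) was not called.

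All 9 members passed the filter in this table, and 5 were called higher and 1 lower, beside 16.9% of 7798 genes called higher and 20.4% called lower. The median log2 fold change was 1.72 over the members and -0.11 over all genes. With each library shifted to the same median, the median of all genes moved to 0.09 and the calls over all genes from 1320 higher and 1594 lower to 1667 and 1221, and the values as deposited gave 197 and 111 with a median of 0.15. Under the same-median scaling, and without KO replicate 4, Eif1a was no longer called (log2 fold change -0.89 and -0.98) and Gm5662 was called higher (1.01 and 1.15). KO replicate 4 had the lowest level of all 7 copies in its group. Its summed 2-cell markers were 522 FPKM, against 1192 to 1286 FPKM in the other KO libraries and 393 to 898 FPKM in the Het libraries, and its summed oocyte and leukocyte markers, 916 and 186 FPKM, were the highest of the table. The part of these markers in the members' differences was not tested.

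**Figure D4:**
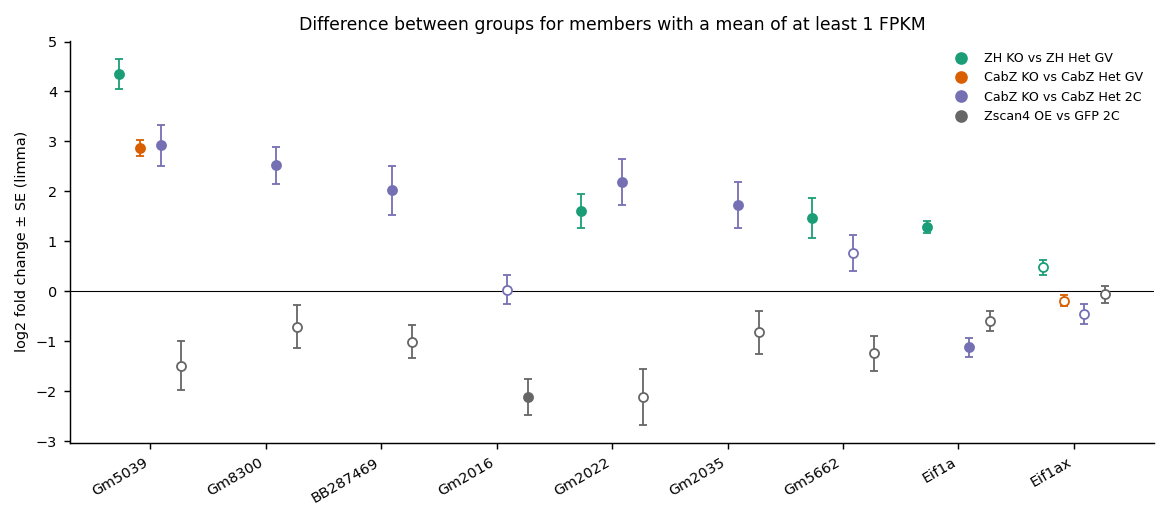
Log2 fold changes from limma with their standard errors are plotted for every member with a mean of at least 1 FPKM in a table, in 4 comparisons. Filled points were called, with the largest change for Gm5039 in ZH KO oocytes (4.35), and Gm2016 is the only filled point among the libraries labelled Zscan4 OE.

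In the libraries labelled Zscan4 OE, the copies had lower levels than in GFP libraries, most of all in replicate B, but only Gm2016 was called. Zscan4d RNA was not higher in these libraries, so the direction is drawn from the labels. The study describes its own checks of the overexpression by other assays, which were not analysed here. Gm2016 had 5.01, 4.37 and 16 FPKM in the libraries labelled Zscan4 OE and 38.8, 29.8, 38.2 and 32.2 FPKM in GFP libraries. It showed no overlap and a log2 fold change of -2.12 ± 0.37 (SE). Gm2022 had 0.390, 1.95 and 7.85 FPKM, on 3 to 50 reads, against 19.7, 12.6, 8.24 and 15.3 FPKM. Its log2 fold change was -2.12 ± 0.55 (SE), the same size as that of Gm2016 with a wider error.

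Gm5039 had 46.5, 7.96 and 35.5 FPKM in the libraries labelled Zscan4 OE and 71.9, 75.1, 70.4 and 59.6 FPKM in GFP libraries (log2 fold change -1.49 ± 0.49, SE). Gm5662 had 45.4, 19.1 and 62.6 FPKM against 112, 81.9, 101 and 75.5 FPKM (-1.24 ± 0.36, SE). Neither gene's groups overlapped, and the replicates labelled Zscan4 OE were far from one another. BB287469 had 48.2, 20.1 and 43.6 FPKM against 92.6, 79.2, 74.0 and 47.3 FPKM (-1.01 ± 0.33, SE), with replicate A of Zscan4 OE above replicate D of GFP.

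Gm8300 had 17.3, 6.78 and 26.9 FPKM against 14.9, 23.1, 34.9 and 31.6 FPKM, and Gm2035 had 5.99, 2.02 and 12.5 FPKM against 8.47, 12.9, 11.2 and 10.5 FPKM. Both overlapped widely. Eif1a had 0.815, 0.216 and 1.17 FPKM in the libraries labelled Zscan4 OE and 1.64, 1.44, 1.66 and 1.42 FPKM in GFP libraries, without overlap and under the 2-fold threshold (log2 fold change -0.59 ± 0.20, SE). Eif1ax was at 6.65, 7.46 and 6.88 FPKM against 9.56, 7.17, 6.58 and 6.43 FPKM, and its log2 fold change of -0.06 ± 0.17 (SE) turned positive when the libraries were shifted to the same median.

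All 9 members passed the filter and 1 was called lower, beside 1.42% of 4293 genes called lower and 0.0233% called higher. The median log2 fold change was -1.01 over the members and 0.03 over all genes. The call of Gm2016 was lost when any 1 library was left out other than replicate C of Zscan4 OE, without which Gm2016 and Gm2022 were both called. Replicate B had the lowest level of the 3 for every member apart from Gm2022 and Eif1ax, and its summed 2-cell markers were also under those of all GFP libraries (553 to 888 FPKM). Without it, 27 genes were called in place of 62.

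Levels of different genes can be compared only per length, and exon length was used for this. The position of Eif1a in the tables differs from that in GENCODE M21, the source of exon lengths, so its level per exon length is approximate. In GFP embryos the order of mean FPKM per exon length was Gm5662 (194), BB287469 (162), Gm5039 (146), Gm2016 (74.5), Gm8300 (55.1), Eif1ax (25.1), Gm2022 (14.0), Gm2035 (10.7) and Eif1a (4.62). The first 3 overlapped in sequence, as did Gm2016, Gm8300 and Eif1ax in sequence and Gm2022 with Gm2035, and no other neighbours did. In the libraries labelled Zscan4 OE, where Gm5662 (88.9) was first and Eif1a (2.21) last, all neighbours overlapped. In CabZ Het embryos Gm5662 (462) and Gm2016 (299) led without overlap with each other or with BB287469 (93.9), and from there on down to Gm2035 (15.4) each neighbour overlapped with the next. In CabZ KO embryos Gm5662 (855) was followed by Gm8300 (371), BB287469 (356), Gm5039 (346) and Gm2016 (323), 5 genes whose neighbours overlapped. Oocytes had another order, with Eif1ax first in all 4 groups and Gm5039 after it. In ZH KO oocytes the ranges of these 2 genes overlapped, at 84.1 ± 14.3 and 73.3 ± 27.3 FPKM per exon length (SD, n = 4 each).

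The make-up of the 7 copies differed between CabZ Het and CabZ KO embryos in the libraries measured. Gm2016 held 30.0 ± 0.785% of their summed FPKM per exon length in Het and 13.7 ± 1.05% in KO embryos. Gm5039 held 4.29 ± 1.66% in Het and 14.4 ± 1.39% in KO embryos, and Gm8300 6.12 ± 2.33% and 15.4 ± 1.26% (SD, n = 4 each). Gm5662 held 46.8 ± 9.31% in Het and 35.0 ± 2.55% in KO embryos. In GFP embryos the shares were different again, with 22.3 ± 1.77% for Gm5039 and 24.4 ± 4.11% for BB287469. The share of BB287469 is the least certain, given how many of its 150-base windows occur elsewhere.

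**Figure D5:**
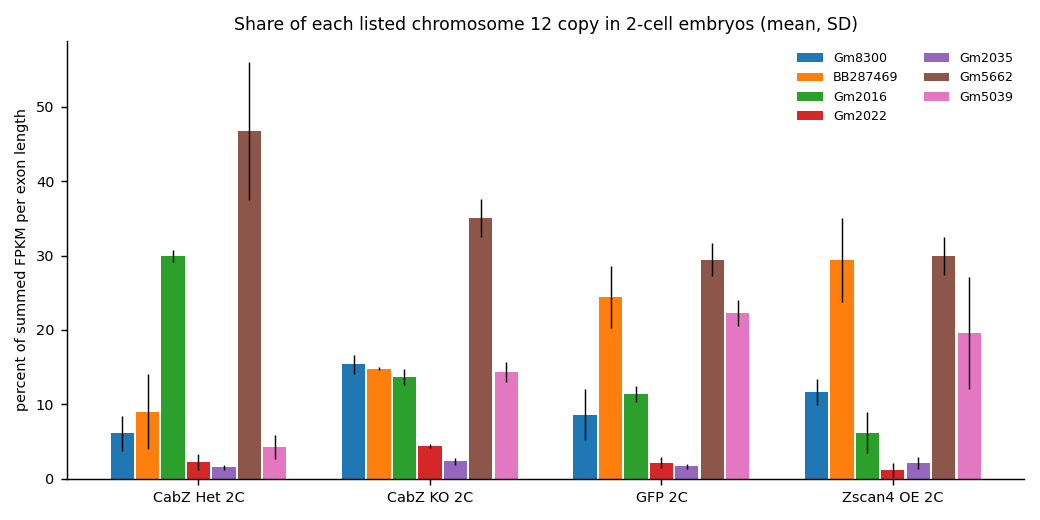
Bars give the mean share of each of the 7 copies in their summed FPKM per exon length in the 4 groups of 2-cell embryos, with the SD over libraries (n = 4, and 3 for Zscan4 OE). Gm2016 and Gm5662 make up most of the sum in CabZ Het embryos, and Gm2016 makes up 30.0% of it in CabZ Het and 13.7% in CabZ KO embryos.

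The cluster holds 9 further coding copies of the same coding length that were not chosen. In ZH KO oocytes, Gm8332 (88249666 to 88250100, minus strand) had 7.19, 29.8, 22.7 and 34.6 FPKM, against 0.165, 0, 0.260 and 0.452 FPKM in Het oocytes. It was the only one of them with a mean of at least 1 FPKM there, reached it through the KO libraries alone, and was called higher (log2 fold change 4.15 ± 0.40, SE). In CabZ KO oocytes it had 0 to 0.813 FPKM, against 0 to 0.621 FPKM in Het oocytes. In CabZ 2-cell embryos all 9 were tested and 8 were called higher, Gm6803 most (3.37 ± 0.37, SE), beside 16.9% of all genes tested. Near-identical copies can share reads, so these calls are not independent of each other. Gm5788, the first copy of the cluster, had 82.8, 88.7, 75.0 and 42.8 FPKM in KO and 95.5, 87.9, 114 and 62.2 FPKM in Het embryos and, like Gm2016, was not called. In the libraries labelled Zscan4 OE, 8 of them were tested and none was called by limma, beside 1.42% of all genes called lower. Without adjustment or a fold threshold, 7 had a limma p under 0.05. That share does not apply to this looser cut, and the share of all genes at it is not given here.

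A list of 62 genes of translation initiation that are not members was counted in each table. The list was chosen with earlier results of these data known, so its adjusted p-values are a description. In ZH KO oocytes, 44 had a mean of at least 1 FPKM, 1 (2.27%) was called higher and 2 (4.55%) lower, beside 10.5% and 7.2% of all genes tested, and their median log2 fold change was -0.02 beside -0.04 over all genes. Mcts2, a retrocopy of Mcts1 whose product helps ribosomes to reinitiate and which lies in an intron of H13, rose from 1.67 ± 0.593 to 7.68 ± 1.63 FPKM (SD, n = 4 each; limma, log2 fold change 1.71, adjusted p = 0.00011, higher in 4 of 4 libraries). Eif4enif1, the transporter that represses eIF4E, fell by 1.41 on the log2 scale (limma, adjusted p = 0.00083), and Eif3d, an eIF3 subunit, fell by 1.199 (limma, adjusted p = 0.00044), with all 4 KO libraries under the Het mean for both. In CabZ KO oocytes, 46 were tested and Mcts2 was the only call, 2.17% beside 2.07% of all genes called higher (limma, log2 fold change 1.33, adjusted p = 0.0226, higher in 4 of 4 libraries), and the median was 0.02 beside -0.02. That call was lost when a library was left out, apart from Het replicate 2 or KO replicate 4.

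In CabZ KO 2-cell embryos, 45 of these genes were tested, 4 (8.89%) were called higher and 20 (44.4%) lower, beside 16.9% and 20.4% of all genes, and their median log2 fold change was -0.95 beside -0.11 over all genes. Mcts2 fell from 159 ± 27.3 to 24.04 ± 19.6 FPKM (SD, n = 4 each; limma, log2 fold change -3.18, adjusted p = 0.0029). Eif3g, an eIF3 subunit, fell from 29.8 ± 11.1 to 4.88 ± 2.71 FPKM (limma, -2.43, adjusted p = 0.00088) and Eif6, which keeps the large ribosomal subunit from joining early, from 42.9 ± 9.96 to 8.25 ± 2.34 FPKM (limma, -2.25, adjusted p = 0.00022). All 4 KO libraries were under the Het mean for these 3 genes. The 4 that rose were Eif1, Eif1b, Eif4e1b and Eif4e3, named after their values were seen and so without a p-value. Eif1 encodes the partner of eIF1A in scanning. It had 570 ± 86.8 FPKM in Het and 1592 ± 192 FPKM in KO embryos (SD, n = 4 each; limma, log2 fold change 1.48, higher in 4 of 4 libraries). In the libraries labelled Zscan4 OE, 27 were tested and none was called by limma, beside 0.0233% of all genes called higher and 1.42% lower. Without adjustment or a fold threshold, 6 had a limma p under 0.05. Those shares do not apply to this looser cut, and the share of all genes at it is not given here.

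The genes whose pattern was most like that of the members were named as a description. Over the 16 oocyte libraries, log2(FPKM + 1) was centred per gene and table and compared with the mean of Gm5039 and Eif1ax, the members with a mean of at least 1 FPKM in both tables. Of 5332 genes, Gm21818 (Pearson r = 0.996), Gm42742 (0.993), Hamp2 (0.991), Zrsr1 (0.990) and Pdcd6 (0.990) were closest. Gm5039 itself had r = 0.995 with that mean and Eif1ax 0.582. Over the 15 libraries of 2-cell embryos and the mean of all 9 members, the closest of 3989 genes were Gm4027 (0.946), Gm45551 (0.934), Gm8332 (0.931), Gm7982 (0.928) and Gm6169 (0.924). Gm4027 and Gm8332 are copies of the same cluster. Among the members, r with that mean ran from 0.952 for Gm2035 to 0.744 for Gm2016 among the copies, and was -0.08 for Eif1a and -0.43 for Eif1ax. The libraries of a group share genotype and table, so r mostly reflects the difference between groups.

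ATAC-seq, which marks DNA open to a transposase, was run on GV oocytes of the CabZ line, in 3 Het and 3 KO libraries of about 100 oocytes. Peaks had been called per library from unique alignments only, a limit for near-identical copies, and numbered 43399, 67074 and 111327 in Het and 46070, 19160 and 29600 in KO libraries. A peak summit within 500 bp of the start site was found for 2 of the 9 members in any library, Gm5039 and Eif1a. At Gm5039, the summit lay at -485 bp relative to the start in Het replicate B (peak chr12:88324212-88324830, 3.27-fold enrichment over the genome background). It lay 365 bp inside the gene in KO replicate A (chr12:88322694-88324138, 4.68-fold), and 679 bp inside it in KO replicate B (chr12:88322988-88323461, 4.50-fold), which is outside the window. The other 6 copies had no summit in any library, neither near the start nor in the gene.

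At Eif1a a summit lay 245 bp after the start in Het replicate C and 241 bp after it in KO replicate A, and 585 bp after it in Het replicate B. Eif1ax had summits inside the gene in Het replicate C and in KO replicates B and C, 715 to 2628 bp after the start. Per library, 0 to 2 members had a summit near the start, beside 2.58 to 23.2% of 21923 coding genes, a share that moved with the number of peaks called. With 3 libraries per genotype and such different peak numbers, no difference between CabZ Het and CabZ KO at these genes was tested.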

How the data were processed

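RNA-seq had been done on 31 libraries of GV oocytes and 2-cell embryos and ATAC-seq on 6 libraries of GV oocytes. RNA was amplified with a Smart-seq2 kit, made into Nextera XT libraries and read as pairs of 150 bases. According to the methods and the processing notes, the authors trimmed the reads, aligned them to mm10 (GRCm38) with STAR 2.5.3a and quantified genes in Partek Flow, and the ZH and Zscan4 tables were deposited as FPKM per gene with a small constant added. The 2 CabZ tables were deposited with values that become whole reads only after multiplication by the squared gene span, and are treated as a score. The authors aligned ATAC-seq reads with Bowtie2 2.3 and called peaks in each library with MACS2, whose deposited files hold the fold enrichment and the −log10 p and q of each peak.

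Each table's lowest value was subtracted. In the CabZ tables the score was then multiplied by the gene span and divided by the library's sum of score times squared span. This gives FPKM scaled to the reads on the listed genes, in place of the FPKM assumed in the test plan. In the ZH and Zscan4 tables the listed genes held 65.6 to 74.7% of the total behind the FPKM scaling. CabZ levels, and the filter of 1 FPKM there, are thus on another scale than in those tables. Reads on genes were recovered from the steps between low FPKM values (80.7 to 88.2% of low values lay within 0.05 of a whole read), giving between 5819315 and 21869858 reads per library, from which CPM were computed, and a gene with 0 reads was set against a floor of 3 reads per library. That floor covers counting error only. In no pair of replicates were the recovered reads alike within sampling noise (lowest chi-square per degree of freedom 7.46).

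Each table was fitted alone on log2(FPKM + 1) with limma 3.58.1 (lmFit, eBayes; R 4.3.3), over genes whose mean reached 1 FPKM. A call needed more than a 2-fold change and a p under 0.05 after Benjamini-Hochberg adjustment. The procedure was run on simulated data built from the control means, with the same spread for all genes. Genes without reads in controls stay at 0 there, so such members are not covered by it. Python 3.11.15 (scipy 1.17.1, pandas 2.3.3, numpy 2.4.6) served for the rest, and matplotlib 3.10.9 for the figures. Fold changes on this scale understate changes of low genes. Coding sequences and exon lengths came from GENCODE M21 and promoters from RefSeq. ATAC-seq summits were counted within 500 bp of the start site.

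The members and the gene lists were chosen with earlier results of these data known, so members carry no p-value. Adjusted p-values of translation initiation genes are a description for the same reason and give no independent support. All members were named, together with the targeted genes, the 5 genes most like the members in each stage, the other copies of the cluster, and the 3 called translation initiation genes with the largest change in each comparison. Eif1 and the other translation initiation genes that rose in CabZ KO 2-cell embryos were named in addition, after their values were seen. Alternatives were another pseudocount, other filters, other scalings, no fold threshold, a ratio of group means, a trended fit, a replicate block, the CabZ values as deposited, and leaving out each library. The authors' files held 0 columns of samples outside the series. Levels of GV and 2-cell tables, normalised separately, were not tested against each other.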

Additional observations from a re-analysis of the deposited data

Results flagged for a closer look

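Of 40 groups of 4 libraries, 3 held a library whose gap to its neighbour exceeded Dixon's critical value at 95%, and chance alone gives about 1 in 20. Gm5662 was at 0.0176 FPKM in ZH Het replicate 3, about 1 read, and at 0 in the other 3 libraries. Gm5039 was at 1.94 FPKM in CabZ Het GV replicate 2, above the other 3 libraries of the group at 1.19 to 1.29 FPKM. Eif1a was at 5.83 FPKM in CabZ KO 2-cell replicate 4, below the other 3 libraries at 9.12 to 9.44 FPKM.

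Eif1a had mean differences of opposite sign at the 2 stages of the CabZ line. The KO minus Het difference in mean log2(FPKM + 1) was 0.16 in GV oocytes, where Eif1a did not pass the filter, and -1.12 in 2-cell embryos. Every KO library lay above the Het mean in oocytes and below it in embryos. The oocyte groups overlapped, however, with KO replicate 1 at 0.207 FPKM and Het replicates 1 and 2 at 0.243 and 0.245 FPKM. The difference between the stages was not tested, since the tables were normalised separately.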

How the results depend on the processing

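Genes called in ZH oocytes (1023) became 1645 with a pseudocount of 0.1, 578 with a filter of 5 FPKM, 3006 without a fold threshold and 1677 with the ratio of means, and in CabZ oocytes (184) 328, 109, 883 and 354, and 10 as deposited. In CabZ 2-cell embryos (2914) they became 1650 with a filter of 5 FPKM, 4376 without a fold threshold and 308 as deposited. In the Zscan4 table (62) they became 5 without a filter. Leaving out 1 library gave 869 to 1152, 167 to 220, 2680 to 3164 and 18 to 100 genes, the last with 18, 20 and 32 without GFP replicates A, B and C, 27 without Zscan4 OE replicate B and 100 without replicate C. Members called became 1 with a filter of 5 FPKM in ZH oocytes (1 to 4 on leaving out a library), 0 in CabZ oocytes as deposited, where none passed the filter, and in the Zscan4 comparison 0 with a pseudocount of 0.1 or no filter (0 to 2 on leaving out a library). Translation initiation genes called in ZH oocytes (3) became 12, 0, 6, 17, 12 and 9 with a pseudocount of 0.1, a filter of 5 FPKM, the same median, no fold threshold, the ratio of means and scaling to the table's reads (3 to 7 on leaving out a library). In CabZ oocytes (1) they became 0 without a filter, 3 without a fold threshold and 0 as deposited (0 to 1 on leaving out a library), and in CabZ 2-cell embryos (24) 2 as deposited. Members with an ATAC-seq summit went from 2 to 1 at a −log10 q of at least 5, and to 3 within 2000 bp of the start or with any overlap of the peak and the window. No called member changed direction under these alternatives. In ZH oocytes the 4 called members passed the filter through the KO libraries alone, so their unchanged direction there is no support. Uncalled Gm2016 changed sign in CabZ 2-cell embryos in 4 of them, and uncalled Eif1ax in the Zscan4 table in 2. The causes were not tested.

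Same-numbered libraries did not deviate together (r from -0.41 to 0.40, over 0.1 in 2 of 4, 1 of 4, 1 of 4 and 2 of 3 pairs in the ZH, CabZ GV, CabZ 2-cell and Zscan4 tables), and 1, 1, 1 and 0 numbers matched best with themselves, so the numbers were not taken as pairs. With the replicate number as a block, 1016, 184, 2886 and 2 genes were called, and 0 members in the Zscan4 table.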
